A study of Rattus norvegicus with 9 samples.

Results

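Plet1 (placenta expressed transcript 1) and Slpi (secretory leukocyte peptidase inhibitor) are 2 genes of the 17337 in a count table of cultured rat cardiac fibroblasts, the cells that lay down the collagen-rich matrix of the heart. They were picked by symbol on their measured counts: no more than 3 counts in any neonatal library, expression in the adult libraries, and an uneven level among those adult libraries. Their levels by age and their spread among adult libraries are therefore given as a description, without a test. RNA was sequenced from 9 cultures of Sprague Dawley rat cells, 3 per age. Fetal cells were taken at embryonic day 18. Neonatal cells were taken on postnatal day 1. The adult rats were 7 weeks old. Cells of all 3 ages were passage 0 isolates, kept until confluent in a medium with fetal bovine serum, antibiotics and ascorbic acid, with no sorting step, transgene or drug treatment in the labels. How many animals went into a culture is not given in the sources used here, so p-values below measure the spread between these cultures, which may be partly technical.

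Plet1 encodes a protein held on the cell surface by a lipid anchor. It is known from trophoblast and from progenitor cells of skin and thymus epithelium, and it has been described on some dendritic cells. Slpi encodes a small secreted protein with WAP domains, compact folds held together by disulfide bonds. It blocks neutrophil elastase and cathepsin G, binds progranulin and keeps elastase from cutting it, and is made by mucosal epithelia and by myeloid cells. Neither gene is a customary marker of heart fibroblasts.

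On the rn6 annotation of the count table, Plet1 lay on the plus strand of chromosome 8 from 54925666 to 54937007, with 4 exons of 1286 bases in all. Slpi lay on the minus strand of chromosome 3 from 160799979 to 160802228, with 4 exons of 650 bases in all. The 250 bases before the Plet1 start in RefSeq (GRCr8, chr8:59738389-59738638, plus strand) are shown because they are the promoter window of 1 of the 2 genes. Capitals mark the matches found to the motifs searched.
Plet1 promoter: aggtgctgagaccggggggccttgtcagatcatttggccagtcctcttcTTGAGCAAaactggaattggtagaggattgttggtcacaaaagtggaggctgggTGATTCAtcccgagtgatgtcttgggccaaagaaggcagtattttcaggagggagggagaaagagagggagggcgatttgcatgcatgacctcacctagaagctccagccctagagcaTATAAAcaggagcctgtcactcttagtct
The letters TATAAA, the TATA box, ran from position -29 to -24 relative to the start. TGANTCA, the AP-1 motif with a free middle base, matched from -147 to -141. TTNNGNAA, a short form of the C/EBP motif, matched from -201 to -194. Both strands were searched, and no 2 matches overlapped. Of 33469 RefSeq promoter windows of the same length, 12.9% held TATAAA, 6.34% TGANTCA and 37.2% TTNNGNAA. The other motifs searched, GGGCGG (30.5% of windows), GGNNTTTCC (5.19%) and GAGGAA (23.3%), had no match in these letters. A match is a description of the letters and no evidence of a bound factor.

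The libraries held 13392825 to 22850491 counts, and the adult ones, at 13392825 to 13810825, were the shallowest. Fibroblast markers were high at every age, with summed levels of 28460 to 55410 CPM (counts per 1000000 TMM-scaled counts) in fetal, 74630 to 80870 in neonatal and 29170 to 37840 in adult libraries. Col1a2 was the exception among them, at 0.0531 to 0.976 CPM in every library. The annotation used for counting spreads this gene from 29529854 to 31569152 on chromosome 4. How its reads were assigned was not tested, so its low counts are not read as a lack of transcript. Macrophage markers summed to 16.0 to 83.2 CPM in fetal, 180 to 199 in neonatal and 5049 to 7014 in adult libraries. Cardiomyocyte markers summed to 10130 to 14230 CPM in fetal, 6529 to 7207 in neonatal and 305 to 320 in adult libraries. Nearly all of the adult sum was Tnnt2, a troponin gene, at 303 to 316 CPM, and the other 12 markers together came to 1.84 to 3.97 CPM there. Fetal replicate 3 stood apart: its epithelial markers summed to 493 CPM against 64.3 and 64.6 in fetal replicates 1 and 2, and its fibroblast markers to 28460 against 55410 and 52300. Over all genes it differed from those 2 libraries with a chi-square per degree of freedom of 90.0 and 97.3, against 3.94 between them. Adult replicate 1 also stood apart from adult replicates 2 and 3, at 25.8 and 43.0 against 6.76 between them, while neonatal pairs lay between 2.05 and 2.76.

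Plet1 was detected above a few counts in the adult libraries only. It had 646 counts in adult replicate 1, 389 in replicate 2 and 226 in replicate 3, or 49.4, 28.1 and 16.9 CPM. The neonatal libraries held 1, 1 and 0 counts. The fetal libraries held 2, 0 and 7 counts, or 0.108, 0 and 0.372 CPM. Every adult library was far above every library of the younger ages, while the fetal and neonatal ranges overlapped. The adult mean was 31.5 CPM ± 16.5 (SD, n = 3), the fetal mean 0.160 ± 0.191 (SD, n = 3) and the neonatal mean 0.0338 ± 0.0296 (SD, n = 3). Adult counts exceeded neonatal ones 863-fold after scaling, with a 95% counting interval (exact binomial) of 239 to 7137, because the neonatal side rests on 2 counts. Against a floor of 3 counts in each neonatal library, 0.166 CPM, the adult mean was 189 times as high. Over the fetal libraries the ratio of summed counts was 209 (interval 110 to 458), and without fetal replicate 3, which leaves 2 fetal counts, it was 645 (178 to 5332).

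Slpi followed the same order of ages with a wider spread. Adult replicates 1, 2 and 3 had 640, 271 and 116 counts, or 49.0, 19.6 and 8.68 CPM. Neonatal libraries held 0, 1 and 0 counts. Fetal replicates 1, 2 and 3 had 4, 7 and 51 counts, or 0.216, 0.309 and 2.71 CPM. No fetal library overlapped an adult one, and all 3 fetal libraries lay above the neonatal ones, 2 of them by only a few counts. The adult mean was 25.7 CPM ± 20.8 (SD, n = 3) and the fetal mean 1.08 ± 1.41 (SD, n = 3), which was 0.262 without fetal replicate 3. The scaled ratio of adult to neonatal counts was 1406, with a counting interval of 252 to 55600 around a single neonatal count. Set against the same floor, the adult mean was 155 times as high, and 85.0 times without adult replicate 1. Adult counts were 24.7 times the fetal ones (interval 19.1 to 32.4), and 95.5 times (53.2 to 192) without fetal replicate 3.

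**Figure D1:**
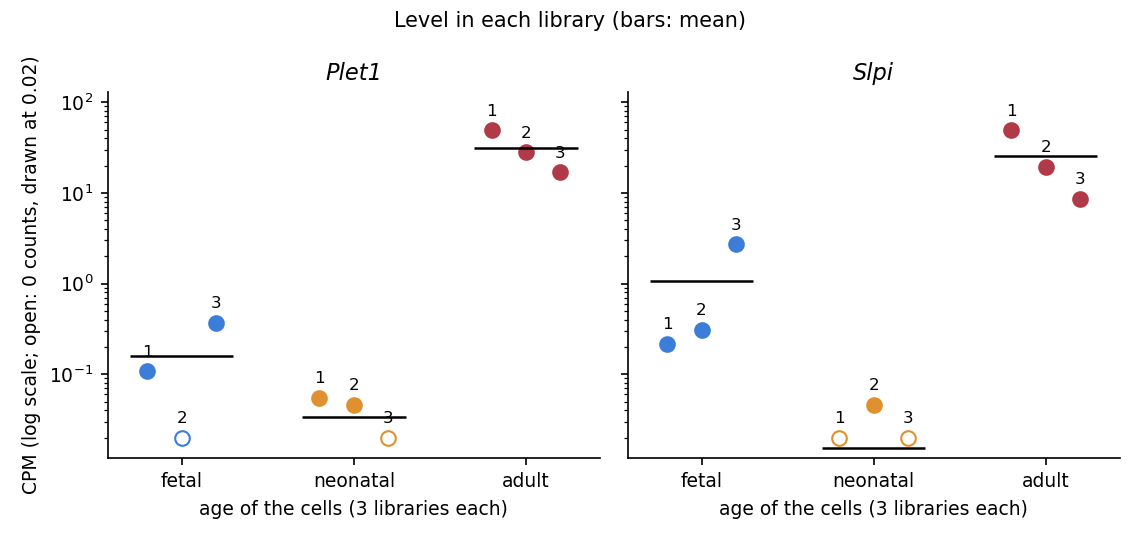
Level of Plet1 and Slpi in each of the 9 libraries, in CPM on a log scale, with replicate numbers above the points and a bar at each age's mean; open points are libraries with 0 counts. Adult libraries sit between 16.9 and 49.4 CPM for Plet1 and between 8.68 and 49.0 CPM for Slpi, above every fetal and neonatal library.

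Per kilobase of exon the levels can be set beside each other. Plet1 stood at 38.4, 21.8 and 13.2 CPM per kb in adult replicates 1, 2 and 3, a mean of 24.5 ± 12.8 (SD, n = 3). Slpi stood at 75.3, 30.1 and 13.4 CPM per kb, a mean of 39.6 ± 32.1 (SD, n = 3). The 2 genes were level with each other in adult replicate 3 and apart in adult replicate 1. As a ratio, Plet1 to Slpi per kb was 0.510 (counting interval 0.457 to 0.570) in adult replicate 1, 0.726 (0.620 to 0.850) in replicate 2 and 0.985 (0.784 to 1.24) in replicate 3. In fetal replicate 3, the fetal library with the most counts of either gene, that ratio was 0.0694 (0.0266 to 0.154), so there Slpi outweighed Plet1 far more than in any adult library. In bulk RNA of this kind, fewer cells that make a transcript and less transcript per cell cannot be told apart.

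An uneven adult level was part of the choice of both genes, and its size was as follows. Plet1 was 1.76-fold higher in adult replicate 1 than in replicate 2 (counting interval 1.55 to 2.0) and 2.92-fold higher than in replicate 3 (2.51 to 3.41). Slpi was 2.5-fold (2.17 to 2.90) and 5.64-fold (4.62 to 6.93) higher, respectively. Both genes thus ranked the adult cultures alike, with replicate 1 highest and replicate 3 lowest. That ranking was shared by 26.8% of the 8152 tested genes with an adult mean of at least 10 CPM, and the opposite one by 24.1%. The size of the spread was rarer: the ratio of replicate 1 to replicate 3 had a median of 1.01 over these genes, and 54 of them (0.662%) reached that of Plet1 and 9 (0.110%) that of Slpi, each count including the gene itself. These figures describe values that took part in the choice of the genes.

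**Figure D2:**
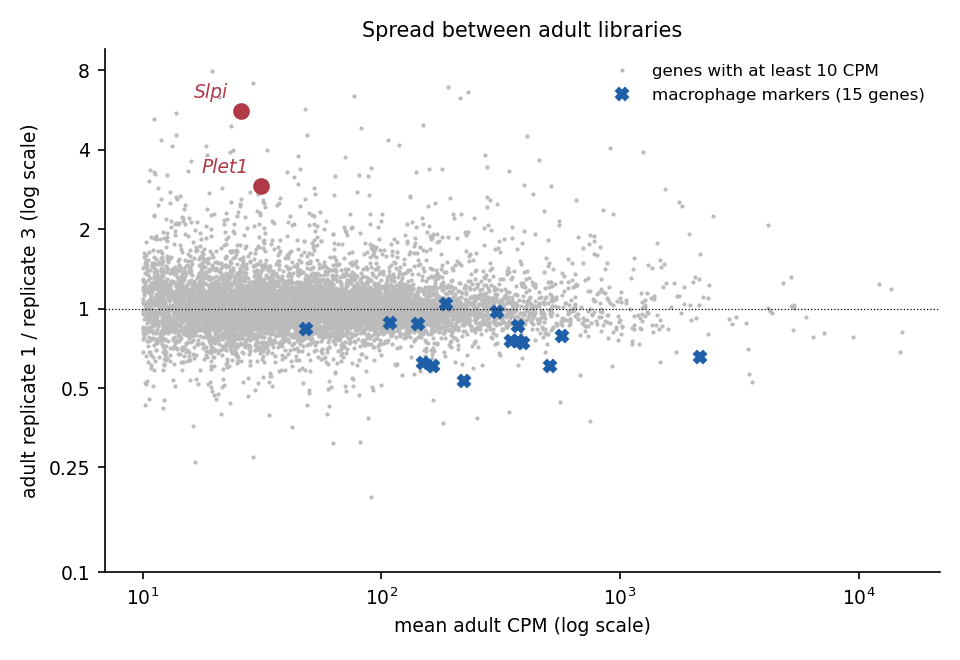
Ratio of adult replicate 1 to adult replicate 3 (log scale) against mean adult CPM (log scale) for the 8152 genes with at least 10 CPM. Slpi at 5.64 and Plet1 at 2.92 lie at the upper edge, and the 15 macrophage markers that reach 10 CPM lie around a median of 0.757.

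Over the whole series, 150 genes were at or below 3 counts in every neonatal and above 3 in every adult library, and 14 of them averaged at least 10 CPM in adult cultures. The other 12 were Mmp7, Mpzl2, Irf4, Irg1, Ccl17, Rgs9, Trpm2, Ccl22, Cst7, RT1-Da, RT1-Ba and Rhbg. Several are genes of myeloid cells: Ccl17 and Ccl22 are chemokines, Irf4 a transcription factor, Irg1 the enzyme that makes itaconate, and RT1-Da and RT1-Ba chains of rat MHC class II. Among the 12, the highest adult library exceeded the lowest by 1.22-fold (Rhbg) to 3.62-fold (Mmp7, the secreted protease matrilysin). Slpi had the widest adult spread of the 14 and Plet1 the third widest, though adult spread took part in the choice of both. In the fetal libraries 8 of the 12 never passed 3 counts, and RT1-Ba and Rhbg reached 4. Plet1 reached 7, as did Cst7 in the same library, fetal replicate 3, and Slpi reached 51. Mpzl2, an epithelial adhesion gene, had the highest fetal count of the 14, with 1, 2 and 66 in fetal replicates 1, 2 and 3. At the edge of the rule, Rgs9, Irf4, Ccl17 and Rhbg were inside with a neonatal maximum of 3 counts, and Pkib, Il1a, Cyp4b1 and Ccl20 were just outside with 4.

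Slpi has near copies next to it in the rat genome, which bears on how its reads were assigned. Slpil2 (rn6, chromosome 3, from 160737470 to 160738920, with a further copy on an unplaced sequence) and Slpil3 (160775649 to 160777068) are listed by RefSeq as pseudogenes of Slpi. Slpil2 had 28, 11 and 5 counts in adult replicates 1, 2 and 3, and 1, 0 and 4 in the fetal ones. Its share of Slpi plus Slpil2 counts was 4.19% (exact Clopper-Pearson 95% interval 2.80 to 6.0), 3.9% (1.96 to 6.87) and 4.13% (1.36 to 9.38) in the adult libraries, and 7.27% (2.02 to 17.6) in fetal replicate 3. The share was thus alike across adult cultures within counting error. Slpil3 had 0 counts in all libraries. Adding Slpil2 to Slpi moved the adult mean from 25.7 to 26.8 CPM and left the ratio of replicate 1 to 3 at 5.64. How reads that match both copies were split was not tested.

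Most of the known targets and partners of the Slpi protein had few or no counts. Differences between ages were tested with edgeR's quasi-likelihood test and Benjamini-Hochberg adjustment, with adjusted p under 0.05 as the call. Of all 11337 genes tested, 31.6% were called higher and 31.8% lower in adult than in neonatal cells. Adult against fetal, 34.9% were higher and 35.5% lower, and neonatal against fetal 18.3% were higher and 18.0% lower. The 2 comparisons with adult cells share the adult libraries. Ctsg (cathepsin G), Tpsab1 (a mast cell tryptase) and Cma1 (chymase) had 0 counts in all libraries, and Elane (neutrophil elastase), the best known target, had 1 count in all, in adult replicate 2. Prtn3 and Tpsb2 had 0 counts in every adult library. Of the 10 genes of this list, 4 passed the filter on low counts.

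Grn, which encodes progranulin, was the 1 listed gene called in adult against neonatal cells, although 2 were called without fetal replicate 3 or without adult replicate 3. It averaged 249.4 CPM ± 61.9 in fetal, 522 ± 8.40 in neonatal and 2149 ± 71.7 in adult cultures (SD, n = 3 each). Adult replicates 1, 2 and 3 stood at 2218, 2075 and 2154 CPM, so Grn did not share the spread of Slpi among them. Its log2 fold change was 2.04 ± 0.16 (SE) against neonatal (edgeR adjusted p = 6.63e-06) and 3.11 ± 0.17 against fetal (edgeR adjusted p = 3.59e-07). Anxa2, a membrane-binding annexin that SLPI can bind, stood at 1302 CPM in adult and 1188 in neonatal cells (log2 difference 0.13 ± 0.10, edgeR adjusted p = 0.247). The scramblases Plscr1 and Plscr4 were higher in adult than in fetal cells (log2 1.21 and 1.80, edgeR adjusted p = 0.000552 and 4.97e-05). Against neonatal cells neither was called (0.27 and 0.20, edgeR adjusted p = 0.265 and 0.412). The median log2 change over the 4 tested genes was 0.23 against neonatal and 1.5 against fetal, beside medians of -0.01 over all tested genes in both comparisons.

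The other genes with WAP domains were few and went in both directions. The list had 16 genes in the table, 1 of which, Spink4, has a Kazal domain instead. Of these, 8 had no count in any library and 3 passed the filter. Wfdc1, a secreted WAP protein, fell with age: fetal cultures averaged 79.4 CPM, neonatal ones 48.4 and adult ones 4.08 (log2 -3.56 ± 0.27 against neonatal, edgeR adjusted p = 5.82e-06). Adult replicates 1, 2 and 3 had 1.99, 4.55 and 5.69 CPM, lowest where Slpi was highest. Wfikkn1, an inhibitor of growth factors of the myostatin group, rose from 1.42 to 2.53 CPM (log2 0.82 ± 0.24 against neonatal, edgeR adjusted p = 0.0151). That call was lost without neonatal replicate 2 (edgeR adjusted p = 0.0608), neonatal replicate 3 (0.0689) or adult replicate 2 (0.0537). Wfdc2, a marker of secretory epithelia, was not called, at 3.71 CPM in neonatal and 6.34 in adult cultures (edgeR adjusted p = 0.216). Its adult replicates 1, 2 and 3 had 7.04, 5.70 and 6.29 CPM, above neonatal replicates at 3.85, 3.53 and 3.75. Fetal replicates 1, 2 and 3 had 3.9, 5.2 and 17.8 CPM, and all 9 libraries share the fitted spread. The part of fetal replicate 3 in the missing call was not tested.

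Protease inhibitors of other families were more often higher than lower. Of 20 listed and measured genes, 13 were tested, and 8 were called higher and 2 lower in adult than neonatal cells, with a median log2 change of 0.98. Against fetal cells 6 were higher and 3 lower, with a median of 1.09. The shares over all tested genes were 31.6% higher and 31.8% lower against neonatal cells, and 34.9% and 35.5% against fetal cells. Not all of them inhibit serine proteases: Cst3, among the higher ones, is a cysteine protease inhibitor, and Serpinf1, a secreted factor, and Serpinh1, a collagen chaperone, are serpins without inhibitory activity. Serpina3n, a secreted serpin, was the most changed of those named, at 0.323 CPM in fetal, 3.12 in neonatal and 869 in adult cultures (log2 8.11 ± 0.18 against neonatal, edgeR adjusted p = 3.86e-09). Its adult replicates were close, at 919, 885 and 804 CPM. Serping1, the C1 inhibitor of complement, rose from 18.6 to 1537 CPM (log2 6.37 ± 0.40, edgeR adjusted p = 2.44e-06). Its adult replicates were 2476, 1263 and 873 CPM, a ratio of replicate 1 to 3 of 2.83, close to that of Plet1. Serpinh1 fell from 4360 to 1982 CPM (log2 -1.14 ± 0.13, edgeR adjusted p = 5.66e-05).

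Secreted antimicrobial proteins, the other functional class of Slpi, had 15 listed genes in the table and 7 tested. In adult cells 6 were higher and 1 lower than in neonatal, and 5 higher and 1 lower than in fetal, with median log2 changes of 3.16 and 4.08. Of all tested genes, 31.6% were higher and 31.8% lower than in neonatal cells. Against fetal cells these shares were 34.9% and 35.5%, and both medians over all tested genes were -0.01. Chi3l1, a secreted chitin-binding lectin, had 729, 338 and 162 CPM in adult replicates 1, 2 and 3 against a neonatal mean of 1.14 (log2 8.46 ± 0.71, edgeR adjusted p = 1.23e-05). Its ratio of adult replicate 1 to 3, 4.51, lay between those of Plet1 and Slpi. Of the 4 listed genes with at least 10 CPM in adult cultures, 3 had the ranking of Slpi and 1 the opposite one. Hp, among the 3, had 34.65, 17.8 and 12.05 CPM in adult replicates 1, 2 and 3. Lcn2, below 10 CPM, had 11.9, 5.27 and 1.80 CPM there and 0.864, 0.970 and 6.48 in the fetal replicates. Both were named after their values were seen. Lyz2, the lysozyme of macrophages, ran the other way among adult replicates, at 1730, 2128 and 2633 CPM. It rose from 61.4 CPM in neonatal to 2164 in adult cultures (log2 5.14 ± 0.76, edgeR adjusted p = 0.000384). Reg3b, a secreted lectin, fell from 34.9 to 0.0760 CPM (log2 -8.74 ± 0.39, edgeR adjusted p = 1.76e-07).

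Genes of epithelial progenitors and trophoblast, the cells for which Plet1 is known, were more often lower than higher in adult cells. Of 14 listed and measured genes, 10 were tested. Adult against neonatal, 2 were higher and 5 lower, with a median log2 change of -0.46. Adult against fetal, 3 were higher and 6 lower, with a median of -1.49. Over all tested genes 31.6% were higher and 31.8% lower than in neonatal cells, and 34.9% and 35.5% than in fetal cells. With 10 genes tested, these counts are a description of the list. Itga6, an integrin of epithelial stem cells, had 22.0, 43.1 and 61.6 CPM in adult replicates 1, 2 and 3 and a neonatal mean of 152 (log2 -1.85 ± 0.31, edgeR adjusted p = 0.000739). It was lowest in the culture where Plet1 was highest. Cdx2, a trophoblast transcription factor named after its values were seen, went with Plet1 at a much lower level, with 2.98, 1.81 and 1.65 CPM in adult replicates 1, 2 and 3 and a neonatal mean of 0.0399 (log2 5.62 ± 1.15, edgeR adjusted p = 0.00207). Cd34, a progenitor surface marker named likewise, also ranked the adult cultures as Plet1 did, at 3.75, 1.37 and 0.599 CPM, but fell from a neonatal mean of 10.4 CPM (log2 -2.46 ± 0.52, edgeR adjusted p = 0.00266). Prom1, a surface marker of progenitor cells, fell from 6.74 to 1.82 CPM (log2 -1.89 ± 0.31, edgeR adjusted p = 0.000526). Ly6e, a lipid-anchored surface protein like Plet1, rose from 47.7 to 134 CPM (log2 1.49 ± 0.13, edgeR adjusted p = 1.09e-05).

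Markers of the cell types known to make Plet1 or Slpi were compared among the adult libraries, each list by its summed CPM. Epithelial markers, 18 genes in the table, summed to 28.5, 40.9 and 42.7 CPM in adult replicates 1, 2 and 3, lowest where both genes were highest. Epcam, a defining epithelial gene named after its values were seen, had 0, 1 and 0 adult counts. St14, a membrane protease, made up much of the epithelial sum, at 22.0, 33.6 and 34.7 CPM. Of the 9 epithelial markers tested, 2 were higher and 2 lower in adult than neonatal cells, beside 31.6% and 31.8% of all tested genes. Without fetal replicate 3 a total of 7 were called instead of 4. Lung epithelial markers summed to 73.0, 80.3 and 83.8 CPM in the adult libraries. Most of this was Etv5, a transcription factor also made outside the lung, and without it the sums were 17.7, 17.6 and 15.9 CPM. Of the 4 tested Napsa, an aspartic protease, was higher than in neonatal cells, at 11.9 CPM (log2 5.60 ± 0.44, edgeR adjusted p = 2.70e-05). Without fetal replicate 3, 3 lung epithelial markers were called.

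Macrophage markers were much more abundant in adult cultures but most were distributed unlike Plet1 and Slpi. All 16 tested of 18 were called higher in adult than in neonatal and than in fetal cells by edgeR, with median log2 changes of 5.30 and 7.68. Over all tested genes 31.6% and 34.9% were called higher in these comparisons. They summed to 5049, 6128 and 7014 CPM in adult replicates 1, 2 and 3. Of the 15 markers with at least 10 CPM, 11 were lowest in replicate 1 and highest in replicate 3. Csf1r, the macrophage growth factor receptor, had 377, 534 and 619 CPM, and Cd14, a receptor for bacterial lipopolysaccharide, 496, 581 and 630. Cd163, below 10 CPM and named after its values were seen, instead ranked the adult cultures as Plet1 did. It had 82, 39 and 30 counts in adult replicates 1, 2 and 3, and 0 in every fetal and neonatal library. Dendritic cell markers as a sum ranked the adult cultures as Plet1 and Slpi did, with a smaller span. They summed to 594, 460 and 418 CPM, a ratio of replicate 1 to 3 of 1.42, and 4 of the 5 with at least 10 CPM had the ranking of Plet1. Ccl22, a chemokine of mature dendritic cells, had 113, 83.0 and 71.9 CPM in adult replicates against a neonatal mean of 0.0183. The sum was carried by Cd74, Ccl22, Fscn1 and Ccl17, and Fscn1, an actin-bundling gene, was higher in fetal cultures (227 CPM) than in adult ones (99.1 CPM). Some defining dendritic cell genes, named after their values were seen, were near 0. In adult replicates 1, 2 and 3 Flt3 had 0, 1 and 0 counts and Xcr1 3, 1 and 0. Cd209a had 2, 0 and 0 and Clec9a 9, 3 and 5. Others, named likewise, were called higher than in neonatal cells. Ccr7 had 53, 39 and 23 adult counts (log2 6.83, edgeR adjusted p = 0.000427). Irf8 averaged 26.5 CPM and Batf3 2.53 in adult cultures (log2 4.39 and 2.92, edgeR adjusted p = 5.24e-08 and 5.56e-05). Zbtb46, also named likewise, was called lower (log2 -0.90, edgeR adjusted p = 0.00231). In this list 6 of 8 tested genes were higher and 1 lower in adult than neonatal cells, beside 31.6% and 31.8% of all tested genes.

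Neutrophil markers summed to 145, 69.8 and 24.3 CPM in the adult libraries, a ratio of replicate 1 to 3 of 5.96. Nearly all of this was Mmp9, a gelatinase that other cells also make, at 142, 66.3 and 22.3 CPM. Of the defining granule genes, Mpo, Ltf and S100a9 had 0 counts in every library. Camp, also on this list, had 4, 14 and 9 counts in adult replicates 1, 2 and 3, and 1, 1 and 2 in the neonatal ones. Csf3r had 21, 25 and 10 adult counts against 2, 3 and 1 neonatal ones. The 2 markers tested, Mmp9 and Csf3r, were both called higher in adult than in neonatal cells (edgeR adjusted p = 0.000122 and 0.00332). Mast cell markers summed to 6.65, 5.99 and 2.99 CPM in the adult libraries, and 8 of the 10 had no adult count. The 2 tested were Kit, at 3.14, 5.13 and 1.95 CPM, and Hdc, at 3.52, 0.866 and 1.05 CPM. Hdc was called higher than in neonatal cells (log2 2.72 ± 0.97, edgeR adjusted p = 0.0348), and Kit was not called (edgeR adjusted p = 0.0776). Among other alternatives, the Hdc call was lost without adult replicate 1 (edgeR adjusted p = 0.157). Mesothelial and epicardial markers, from the cells that cover the heart, summed to 729, 422 and 323 CPM, a ratio of 2.26. Aldh1a2, a retinoic acid-producing enzyme of the epicardium, carried most of it, at 437, 254 and 169 CPM. Tcf21 was next, at 226, 113 and 108 CPM. Without Aldh1a2 and Tcf21 the sums were 66.4, 55.3 and 46.3 CPM, a ratio of replicate 1 to 3 of 1.43. Upk1b and Krt19, mesothelial surface and keratin genes, averaged 0.394 and 0.125 CPM in adult cultures. Msln (mesothelin) and Wt1, an epicardial transcription factor, both named after their values were seen, ranked the adult cultures as Plet1 did, at 12.3, 4.55 and 3.82 CPM and at 20.3, 15.4 and 9.66 CPM. Against neonatal cells Msln was lower (log2 -1.03, edgeR adjusted p = 0.0309) and Wt1 higher (log2 0.73, edgeR adjusted p = 0.0177). Over the list, 3 of 9 tested markers were higher and 5 lower in adult than neonatal cells, beside 31.6% and 31.8% of all tested genes.

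Adventitial fibroblast markers summed to 1423, 1165 and 1078 CPM, a ratio of replicate 1 to 3 of 1.32. Of 12 tested, 8 were higher and 3 lower in adult than neonatal cells, beside 31.6% and 31.8% of all tested genes. Pi16, which marks fibroblasts around vessels, had 199, 180 and 184 CPM in adult replicates and a neonatal mean of 6.09 (log2 4.95 ± 0.10, edgeR adjusted p = 2.13e-09). Scara5, a ferritin receptor of the same cells, had 301, 165 and 132 CPM, a wider spread than Pi16. The fibroblast markers as a whole summed to 29170, 35210 and 37840 CPM, lowest in replicate 1. Col1a1 and Col3a1, the main fibrillar collagens, carried most of this, and without them the sums were 9128, 9697 and 10120 CPM. Single markers went the other way: Pdgfra, a growth factor receptor, had 669, 383 and 245 CPM, a ratio of replicate 1 to 3 of 2.73, and Dcn (decorin) 470, 359 and 230 CPM, a ratio of 2.05, both named after their values were seen. Of 12 fibroblast markers with at least 10 CPM, 5 were lowest in replicate 1 and highest in replicate 3, and 2 the reverse. Of 13 tested, 4 were higher and 6 lower in adult than in neonatal cells, beside the same shares of all tested genes. Endothelial markers summed to 113, 110 and 102 CPM, and to 42.8, 37.8 and 33.0 CPM without Tie1, an endothelial receptor that carried most of the sum. Erg, an endothelial transcription factor, had 4.21, 10.2 and 12.1 CPM, whereas Pecam1, an adhesion gene named after its values were seen, had 10.3, 6.07 and 5.09 CPM. Tnnt2 was even, at 303, 310.0 and 316 CPM. Adult replicate 1, where Plet1 and Slpi were highest, was thus also highest in the mesothelial, dendritic, adventitial, mast cell, endothelial and Mmp9 values. It was lowest in the macrophage, fibroblast, epithelial, lung epithelial and cardiomyocyte sums. The endothelial and cardiomyocyte differences were small, and members of some lists went against their sum. The part of any of these values in the spread of Plet1 and Slpi was not tested.

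**Figure D3:**
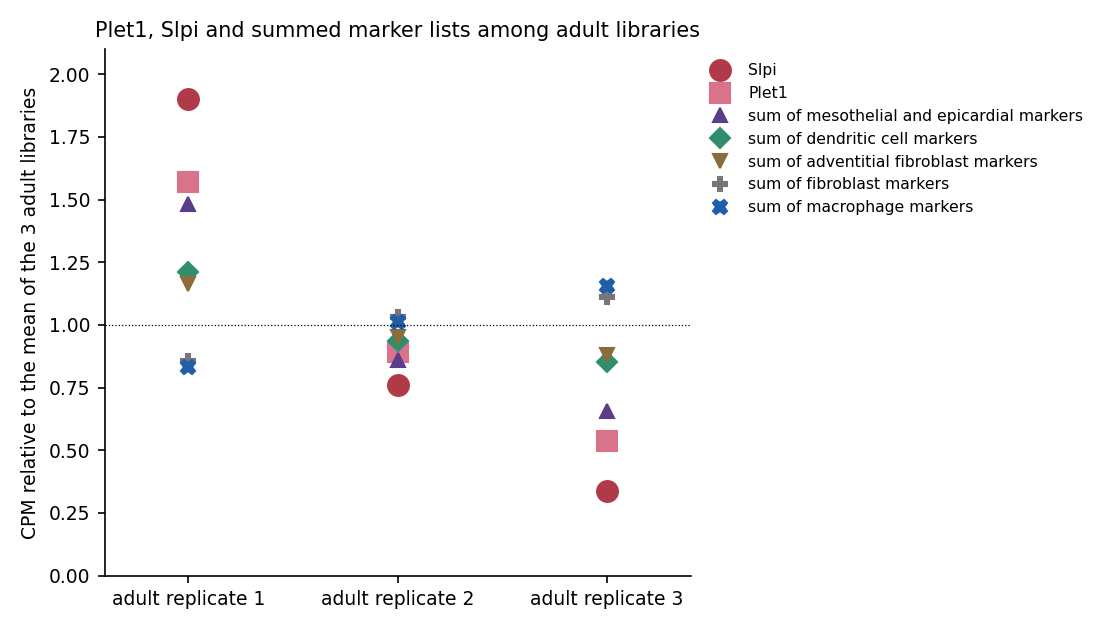
Slpi, Plet1 and 5 summed marker lists in the 3 adult libraries, each as CPM relative to its own mean over those libraries (linear scale, dotted line at 1). Slpi and Plet1 span the widest ranges, mesothelial, dendritic and adventitial sums are also highest in replicate 1, and macrophage and fibroblast sums are lowest there.

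In the fetal libraries both genes were highest in replicate 3. Slpi was 10.2-fold higher there than in fetal replicates 1 and 2 together (counting interval 5.22 to 21.6), and Plet1 7.66-fold higher (1.46 to 75.6), the latter from 7 counts against 2. That library also held the epithelial signal given above. Its Epcam stood at 46.9 CPM against 0.702 and 0.529 in fetal replicates 1 and 2, its Cdh1 (E-cadherin) at 113 against 1.30 and 2.34, and its Cldn18, a tight-junction gene of lung and stomach, at 58.5 against 1.35 and 1.15. Lung epithelial markers summed to 145 CPM against 64.7 and 65.2, and to 103 against 5.99 and 6.43 without Etv5, which was not raised there. Scgb1a1, a secretory protein of the airway named after its values were seen, had 12.96 CPM there and at most 0.264 in the other fetal libraries. Macrophage markers were also higher there, at 83.2 CPM against 17.2 and 16.0. In the adult libraries, by contrast, Epcam and Cldn18 were at or near 0. The part of these markers in the fetal values of Slpi and Plet1 was not tested.

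**Figure D4:**
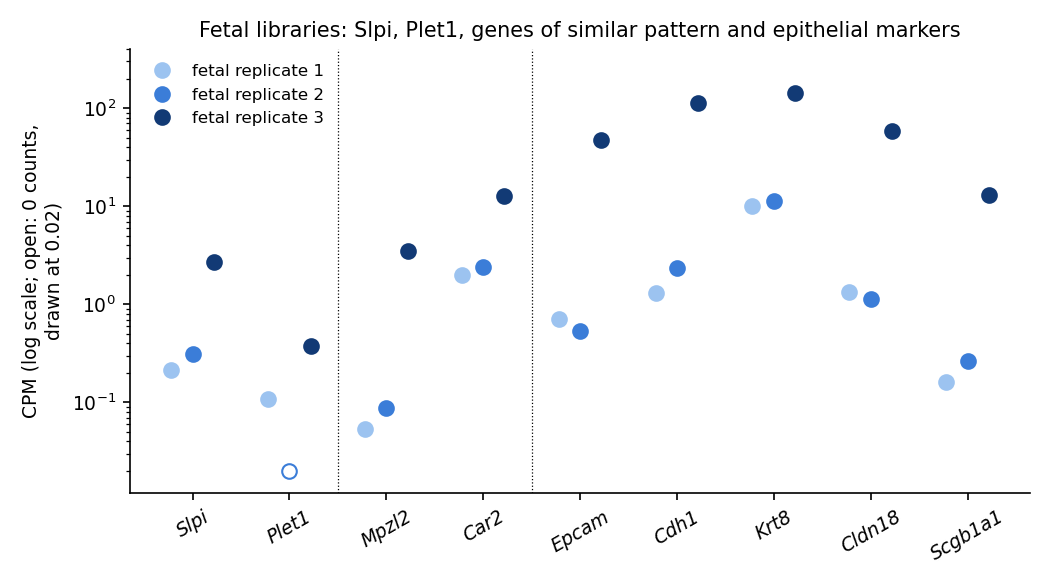
CPM (log scale) in the 3 fetal libraries for Slpi and Plet1, for Mpzl2 and Car2 with similar patterns, and for 5 epithelial or lung epithelial genes; open points are 0 counts. Fetal replicate 3 is the highest for every gene shown, with Slpi at 2.71 CPM and Epcam at 46.9 CPM.

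The genes with patterns most like each of the 2 were found by the distance between centred log2 CPM profiles over the 9 libraries. For Plet1 the nearest were C3, the central complement component (distance 1.38), Cst7, a cystatin of immune cells (1.48), Rgs9, a regulator of G-protein signalling (1.89), Mmp7 (1.95) and Irg1 (2.08). C3 had 316, 131 and 93.6 CPM in adult replicates 1, 2 and 3 and 0.756, 0.529 and 2.44 in the fetal ones, so it shared both the adult spread and the fetal replicate 3 value. For Slpi the nearest were Car2, a carbonic anhydrase (1.32), Mpzl2 (2.45), Ccl20, a chemokine (2.67), Enpp2, the lysophospholipase autotaxin (2.98), and Cst7 (3.27). Car2 had 138, 77.4 and 51.3 CPM in adult and 2.0, 2.42 and 12.6 in fetal replicates. Plet1 was the 6th nearest gene to Slpi, and Slpi the 35th nearest to Plet1, at a distance of 3.29. These lists depend on how low counts are handled: with a prior count of 0.5 in place of 2, C3 and Cst7 stayed among the nearest 5 of Plet1 and Car2 and Ccl20 among those of Slpi.

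**Figure D5:**
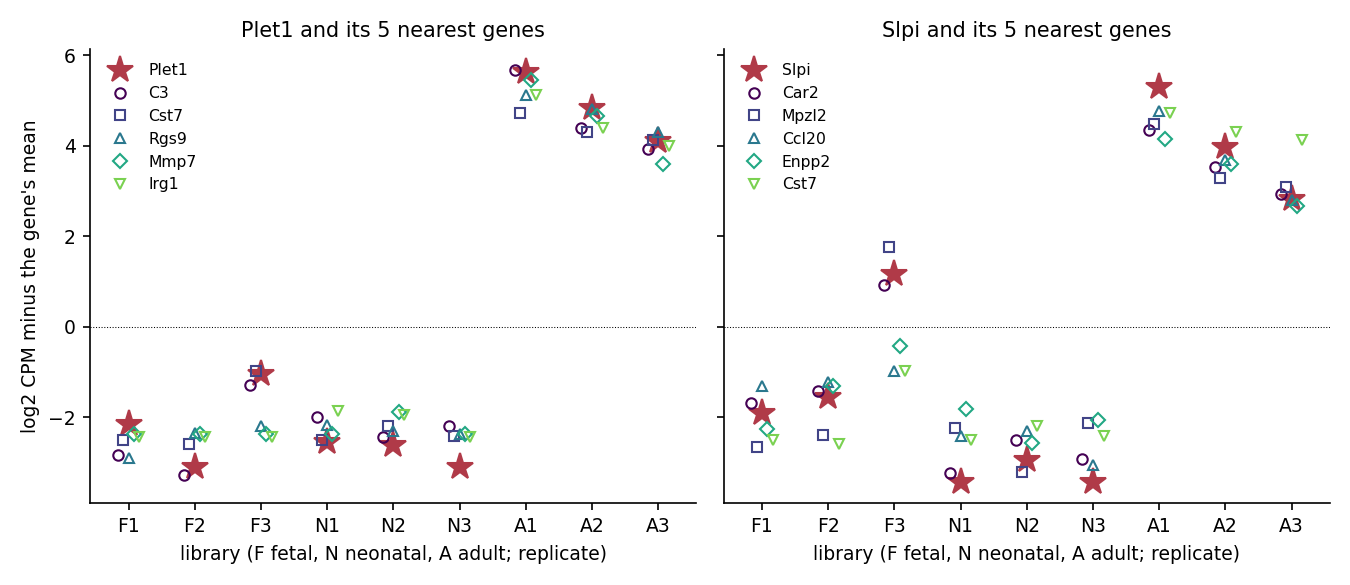
Log2 CPM (prior count 2) minus each gene's mean over the 9 libraries, for Plet1 (left) and Slpi (right, stars) with the 5 genes of nearest pattern each (open symbols). All genes shown are highest in the adult libraries, and Slpi, Car2 and Mpzl2 also rise above the other young libraries in fetal replicate 3.

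Position offered a comparison that the choice of the genes had not used. The nearest genes downstream of Plet1 are Pts, an enzyme of tetrahydrobiopterin synthesis separated from the end of Plet1 by 17.3 kb, and Bco2, a carotenoid-cleaving enzyme separated from it by 28.6 kb. Both are on the opposite strand. Bco2 rose from 0.501 CPM in neonatal to 8.05 in adult cultures (log2 4.04 ± 0.54, edgeR adjusted p = 0.000162). Its adult replicates had 6.12, 6.64 and 11.4 CPM, with replicate 3 highest, unlike Plet1. Pts rose from 8.77 to 13.2 CPM (log2 0.59 ± 0.15, edgeR adjusted p = 0.00756), and was even among adult replicates at 12.3, 13.6 and 13.7 CPM. Tex12 on the same side, and Drd2 on the other, never passed a few counts. Ncam1, a neural adhesion gene, and Ttc12, both on that other side, were not called (edgeR adjusted p = 0.415 and 0.875 against neonatal).

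Beside Slpi, the heparan sulfate proteoglycan gene Sdc4, separated from it by 70.3 kb, rose from 124 CPM in neonatal to 440 in adult cultures (log2 1.83 ± 0.23, edgeR adjusted p = 0.000132). Its adult replicates had 639, 347 and 333 CPM, so replicate 1 was highest as for Slpi, while replicates 2 and 3 were close. Matn4, a matrix protein gene at 36.4 kb, and Rbpjl, a transcription factor gene, were not called against neonatal cells (edgeR adjusted p = 0.148 and 0.111). These 2 overlap on opposite strands, so reads from the overlap cannot be given to either by strand. Both were higher than in fetal cells (log2 1.28 and 1.06, edgeR adjusted p = 0.00304 and 0.00447). Matn4 had 18.9, 34.7 and 47.6 CPM in adult replicates, lowest where Slpi was highest. Svs5, a seminal vesicle gene on the other side, had 0 counts in all libraries. Of the 12 neighbours of the 2 genes 7 were tested, and 3 of the 7 (42.9%, beside 31.6% of all tested genes) were called higher in adult than in neonatal cells, Pts, Bco2 and Sdc4.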

How the data were processed

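RNA-seq gene counts of 9 libraries were used as deposited. The authors counted reads with featureCounts 1.6.3 against rn6 genes, per the file headers. The submitters' processing notes also name Trimmomatic 0.39, STAR 2.5.2b, FastQC and DESeq2. The recorded counting command sets no strand option, so reads of antisense partners cannot be told apart. A deposited table of normalized values was not used. The 3163 genes without a count stayed in the table. Libraries were grouped by the age in the labels.

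The 2 genes and all lists were chosen with earlier results of these data known. Named genes are the 2 genes, 3 neighbours on each side, the 5 nearest patterns, the SLPI partners, and from each list the 3 most abundant genes and the 2 called genes with the smallest adjusted p in adult against neonatal; others are marked where named or are defining markers at 0.

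Ages were compared with edgeR 4.0.16 (R 4.3.3; filterByExpr, TMM, robust glmQLFit and glmQLFTest, all 9 libraries, age as the only term), Benjamini-Hochberg over 11337 genes, threshold 0.05. The fits were tested on simulated data. CPM are per 1000000 TMM-scaled counts. Intervals and the floor of 3 counts cover counting error only, since reads lacking molecular identifiers may be copies of one molecule. Alternatives were DESeq2 1.42.0, other scalings, no filter, each library left out, and the replicate block. Adding Slpil2, summing lists without their most abundant members, leaving out libraries in the adult to fetal ratio, and rescaling that ratio and the ratio of adult replicates were chosen after seeing the data.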

Additional observations from a re-analysis of the deposited data

How the results depend on the processing

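Over the edgeR alternatives and DESeq2, 1626 of 1663 values for the named genes kept their call, 37 lost it and 0 reversed. Of 119 calls, 108 were kept in all 14 alternatives, and 421 of 448 list counts stayed within 1.5 times the reported one. Adult against neonatal, 7197 genes were called, and 6210 to 8322 when a library was left out, the highest without fetal replicate 3. That library is of neither age compared. Neonatal against fetal, 4114 genes were called, and 2476 to 4679 when a library was left out, the lowest without a neonatal library. Library size alone in place of TMM moved the median log2 change to -0.122 adult against fetal and -0.175 neonatal against fetal, and the higher share of neonatal against fetal calls from 50.4% to 29.0%.

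The adult to fetal ratio of means of Plet1 was 197, with 131 to 583 when a library was left out, and that of Slpi was 23.9, with 13.1 to 98.1. The upper ends are without fetal replicate 3; the cause was not tested. At 9 fetal and 2 neonatal counts for Plet1, depth limits the ratios of Plet1 to both younger ages.

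Replicate numbers did not pair the libraries: deviations of 9 same-numbered pairs correlated at -0.0649 to 0.0521. With the replicate block, 6985 genes were called adult against neonatal (7197 without), 7801 adult against fetal (7987) and 3713 neonatal against fetal (4114); the block ended the adult against neonatal calls of Sox9 and Hdc and the adult against fetal call of Col1a1, and no other call among the named genes.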
